A study of Mus musculus with 9 samples.

Results

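Wnt4, Fgf8, Bmp2, Pax2, Pax8, Lhx1, Emx2, Osr2, Cdh6 and Ccnd1 are genes of the pretubular aggregate, the renal vesicle and the committed nephron, the first structures that nephron progenitors form in the embryonic kidney. They were taken by name, 10 out of 54838 genes in the deposited table. The list was drawn up with earlier results of these data known. All 10 passed the filter on low values, a mean of at least 5 normalized counts, which left 19656 genes to be tested.

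RNA was sequenced from cells of mouse embryonic kidneys at E18.5, in 3 groups of 3 libraries. All mice were of the CD1 strain, and both Tsc1 alleles were floxed in all 3 groups. Control vehicle embryos were Tsc1 fl/fl, with no Cre named in the genotype, from dams given DMSO, although the titles call them wild type. Mutant vehicle embryos were Six2 Cre Tsc1 fl/fl from dams given DMSO, and mutant rapamycin embryos had the same genotype from dams given rapamycin at 0.2 mg/kg. Six2 Cre acts in nephron progenitors and their descendants, so ureteric bud, stromal and vascular cells are not its target. Injections into the peritoneum were given every other day from E12.5 to E16.5. Control embryos given rapamycin were not analysed here, so an effect of rapamycin could be read only within mutants. The labels number the libraries within a group and do not say whether each came from 1 embryo, a pool or a litter, so a p-value here reads only library-to-library spread, part of which may be technical. Tsc1 encodes hamartin, a brake on the mTORC1 kinase, and rapamycin inhibits mTORC1. The comparisons ask how the induced nephron genes differed in Six2 Cre Tsc1 fl/fl mutants and with rapamycin given to mutants. Because controls have no Cre named, the Cre driver and loss of Tsc1 cannot be told apart.

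Nephrons form when WNT9B from the ureteric bud acts on progenitors of the cap mesenchyme that express Six2 and Osr1. Induced progenitors gather into a pretubular aggregate that expresses Fgf8 and Wnt4, turn into an epithelial renal vesicle that expresses Lhx1, Pax8 and Bmp2, and go on to the comma- and S-shaped bodies, in which Osr2 and Cdh6 are used. In mice, loss of Wnt4, Fgf8 or Lhx1 in the kidney stops nephrons before the S-shaped body. In bulk RNA of sorted cells, fewer cells of a type and less RNA per cell cannot be told apart.

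The promoters of 4 of these genes are shown because the test split them: Lhx1 and Pax8 were called lower in rapamycin-treated mutants than in controls, and Wnt4 and Cdh6 were not. The split does not show that the genes differ from each other. In fits without 1 library, Pax8 kept its call in 3 of 9 and Wnt4 was called in 1 of 9. RefSeq promoter sequences (GRCm38.p6) matched 6 of the 10 genes. No entry was matched for Fgf8, Bmp2, Ccnd1 and Osr2. Each line gives bases upstream of the start site, on the gene's strand and short of any annotated exon of the gene. The capitals mark the letters GGGCGG of a GC box, or those of a TCF/LEF motif, which is CTTTG followed by AA, AT, TA or TT, on either strand.
Lhx1, chr11:84525536-84525784, minus strand: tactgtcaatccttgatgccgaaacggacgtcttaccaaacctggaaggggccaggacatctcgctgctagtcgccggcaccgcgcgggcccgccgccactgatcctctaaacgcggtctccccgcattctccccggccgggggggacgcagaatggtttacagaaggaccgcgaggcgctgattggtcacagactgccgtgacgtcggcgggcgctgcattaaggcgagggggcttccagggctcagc
Pax8, chr2:24475600-24475849, minus strand: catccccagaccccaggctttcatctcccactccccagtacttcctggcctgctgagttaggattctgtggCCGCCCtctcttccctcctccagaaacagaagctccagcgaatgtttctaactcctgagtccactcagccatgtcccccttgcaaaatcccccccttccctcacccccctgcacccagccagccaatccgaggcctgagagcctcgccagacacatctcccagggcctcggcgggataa
Wnt4, chr4:137277385-137277488, plus strand: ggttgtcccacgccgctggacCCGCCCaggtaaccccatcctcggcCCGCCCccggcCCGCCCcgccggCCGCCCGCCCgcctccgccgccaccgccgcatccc
Cdh6, chr15:13173676-13173925, minus strand: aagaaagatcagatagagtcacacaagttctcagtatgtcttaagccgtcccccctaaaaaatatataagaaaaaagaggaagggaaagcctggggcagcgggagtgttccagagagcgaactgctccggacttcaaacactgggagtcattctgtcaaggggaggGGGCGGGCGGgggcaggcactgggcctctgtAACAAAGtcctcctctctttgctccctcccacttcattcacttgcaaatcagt
Searched over 250 bases and both strands, the GC box was at 5 places before the annotated exon of Wnt4 and at 3 more inside that exon, at 2 overlapping places before Cdh6, at 1 place before Pax8 and at none before Lhx1. Emx2, which was called and whose window began inside an annotated exon, had 2 GC boxes. Pax2, which was not called, had 0, 1 and 1 in its separate windows. A GC box was found in 32.7% of 32851 promoters. A link between these motifs and the calls was not tested. Among the 6 matched genes a TCF/LEF motif was found only before Cdh6, 53 bases upstream on the other strand, against 14.8% of all promoters. TATAAA, the TATA box, was found in none of the 6 genes and in 12.4% of promoters. The GC content of the window was 64.8% for Lhx1, 60.4% for Pax8, 85.2% for Wnt4 and 51.2% for Cdh6, against a median of 52.4% over all promoters.

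Depth was 23372093 to 32669791 counts per library. Tsc1 itself had 1742 ± 301 normalized counts (SD, n = 3) in controls, 1647 ± 90.7 (SD, n = 3) in vehicle-treated mutants and 1584 ± 89.0 (SD, n = 3) in rapamycin-treated mutants. Because the table counts the whole gene, a deletion of a few exons is not checked by it. The libraries were labelled proximal tubule cells and were sorted for CD133, the product of Prom1. Prom1 had 2453 to 3362 normalized counts across the 9 libraries and none of 3 comparisons called it. Markers of progenitors, podocytes, stroma, endothelium and leukocytes were counted in all 9 libraries beside those of the proximal tubule, so the libraries held RNA of more than 1 cell type. Gm42418, a predicted gene known to collect ribosomal RNA reads, held 5.18% of the counts in control replicate 1, 2.8% in rapamycin replicate 2 and 0.425% to 1.42% in the other 7 libraries.

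Across the set, levels were highest in controls, intermediate in vehicle-treated mutants and lowest in rapamycin-treated mutants. The group means of 9 genes lay in that order, and Bmp2 was the exception. The same order was found in 4538 of all genes tested, or 23.1%. Only Lhx1 and Fgf8 had 3 groups with no overlap at either step, a pattern found in 93 genes, or 0.473%. Rapamycin-treated mutants had from 25.8% (Fgf8) to 81.7% (Bmp2) of the control mean, and vehicle-treated mutants from 50.1% (Fgf8) to 98.1% (Cdh6). The plot of normalized counts by library shows these values for each gene.

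**Figure D1:**
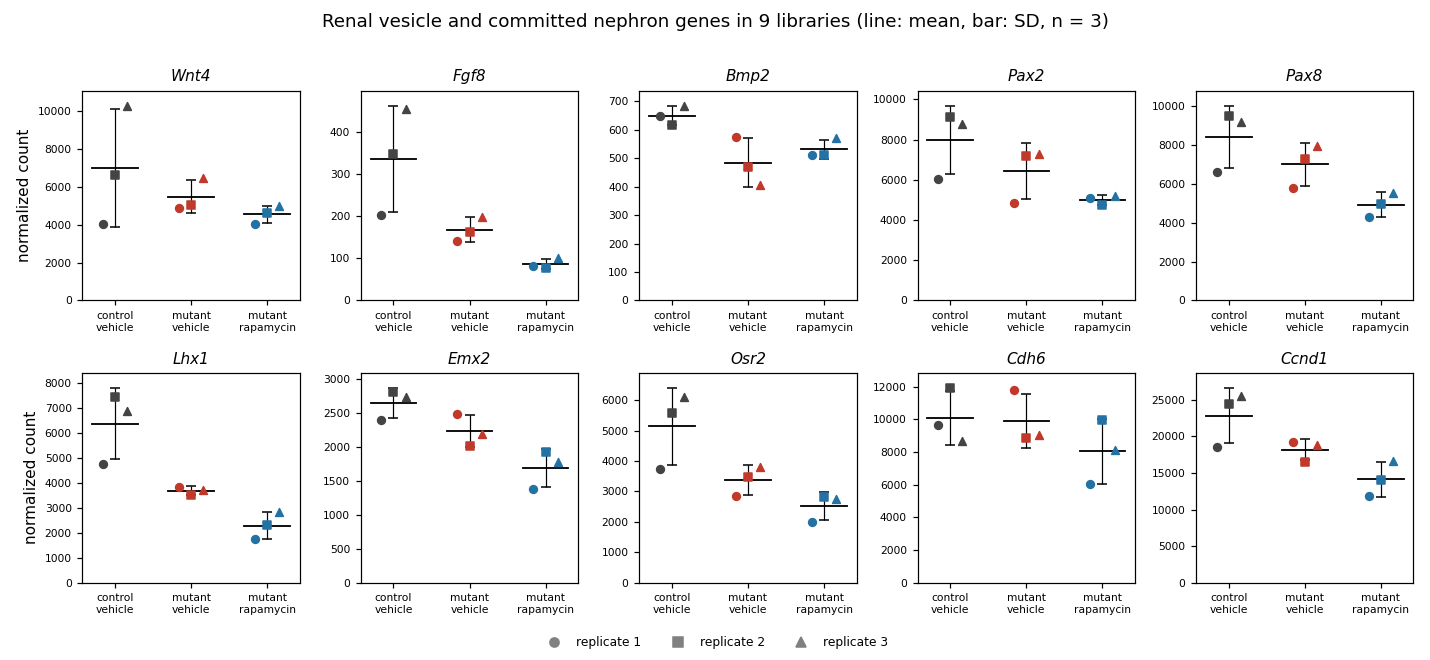
Normalized counts of the 10 genes (linear axis from 0) in each library of the 3 groups, with marker shape for the replicate number, a line for the mean and a bar for the SD (n = 3). Lhx1 and Fgf8 step down at each group without overlap, while the groups of Wnt4 and Cdh6 overlap.

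Of the 10 genes, 6 fell between controls and rapamycin-treated mutants (Lhx1, Fgf8, Osr2, Pax8, Ccnd1 and Emx2; limma, adjusted p under 0.05 over all genes) and none rose. By limma-voom 5 fell, all but Pax8 of these, and 7 of the 10 had an unadjusted p under 0.05 by limma, against 17.5% of all genes. Over all genes, 0.941% were called lower and 2.30% higher in that comparison. No overlap with lower values in rapamycin-treated mutants was found for 8 of the 10 genes, all but Wnt4 and Cdh6, against 10.8% of all genes. In vehicle-treated mutants against controls none of the 10 genes was called in either direction, against 0.366% of all genes called lower and 1.05% called higher. There 4 genes had an unadjusted p under 0.05, against 10.1% of all genes, limma-voom called 0, and Lhx1, Fgf8 and Bmp2 lay lower with no overlap, against 6.14% of all genes. With the replicate number as a block, Lhx1 (adjusted p = 0.0417) and Osr2 (adjusted p = 0.0227) were called lower there by limma. That pairing was taken from these same data and not from the labels. In rapamycin-treated against vehicle-treated mutants none of the 10 was called either, against 0.0560% called lower and 0.244% called higher. There 5 genes had an unadjusted p under 0.05, against 11.7% of all genes, limma-voom called 0, and Lhx1, Pax8, Fgf8, Emx2 and Osr2 lay lower with no overlap, against 9.0% of all genes. The 3 comparisons share groups in pairs, so they are not independent of each other. The median log2 fold change of the 10 genes was -0.31 for mutant vehicle against control, -0.39 for mutant rapamycin against mutant vehicle and -0.67 for mutant rapamycin against control, where the medians of all genes tested were -0.01, -0.01 and -0.00.

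When 1 library was left out, the count over all genes moved from 637 to between 175 and 1131. The count of 6 moved as well. It was 2, Lhx1 and Fgf8, without control replicate 2, without control replicate 3 or without any 1 of the 3 rapamycin libraries. It was 3 without mutant vehicle replicate 2 and 8 without control replicate 1. Control replicate 1, the library richest in Gm42418 reads, was the lowest control in 8 of the 10 genes. Without it, Lhx1 and Fgf8 were also called lower in vehicle-treated mutants. Among rapamycin libraries, replicate 1 was the lowest in 7 genes. Without both control replicate 1 and rapamycin replicate 2, the libraries with most Gm42418 reads, the count stayed at 6. Beyond that fit, the part of ribosomal RNA reads in these values was not tested.

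**Figure D2:**
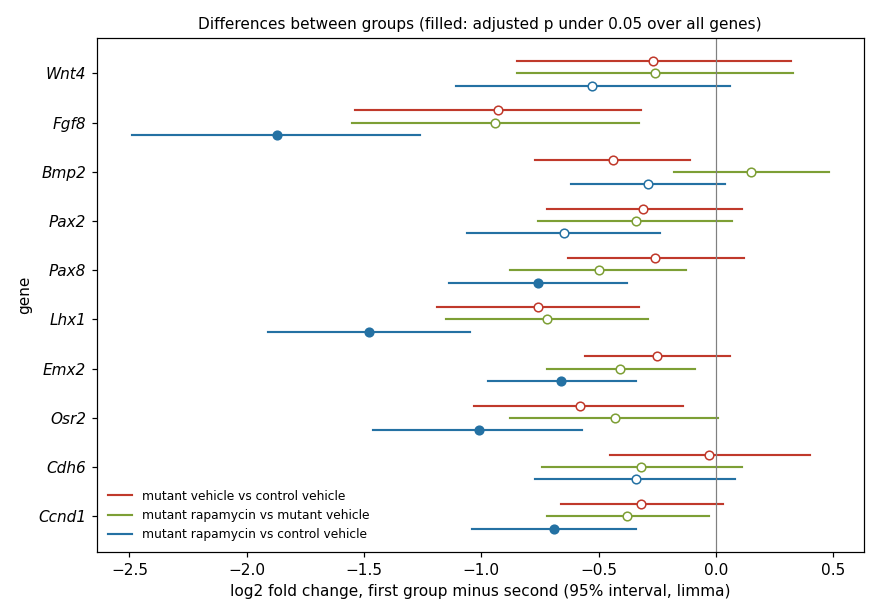
Log2 fold changes of the 10 genes in 3 comparisons with 95% confidence intervals from limma, filled where the adjusted p over all genes was under 0.05. The 6 filled points all belong to mutant rapamycin against control vehicle, and the largest change is that of Fgf8 at -1.87.

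Among the ligands, Fgf8 changed most. Fgf8 (chromosome 19, 45736798 to 45742915, minus strand, GRCm38) encodes the growth factor that keeps the cells of the pretubular aggregate alive. Its normalized counts were 204, 347 and 455 in controls, 141, 163 and 199 in vehicle-treated mutants and 81.8, 77.8 and 99.7 in rapamycin-treated mutants. Each group lay below the one before it with no overlap, and no library had fewer than 68 raw counts of it. Rapamycin-treated mutants had 3.67-fold less than controls. On the log2 scale this was -1.87 ± 0.28 (SE; adjusted p = 0.00549, limma), and the call was kept in 9 of 9 fits that left out 1 library. The change was -0.93 ± 0.28 (SE; adjusted p = 0.177) in vehicle-treated mutants against controls and -0.94 ± 0.28 (SE; adjusted p = 0.211) in rapamycin-treated against vehicle-treated mutants, neither of which passed.

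Wnt4 (chromosome 4, 137277489 to 137299726, plus strand) encodes the ligand by which the aggregate drives its own change into epithelium. Its normalized counts were 4053, 6629 and 10242 in controls, 4876, 5033 and 6456 in vehicle-treated mutants and 4048, 4587 and 4972 in rapamycin-treated mutants. The controls alone spanned the values of all other libraries but 1, with a coefficient of variation of 44.6%, the highest of the 10 genes in controls. The log2 fold change of rapamycin-treated mutants against controls was -0.53 ± 0.27 (SE; adjusted p = 0.344), with a 95% interval from -1.11 to 0.06. Without control replicate 1 it was -0.87 and passed, at an adjusted p of 0.0263 by limma.

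Bmp2 (chromosome 2, 133552159 to 133562885, plus strand) encodes a bone morphogenetic protein of the distal renal vesicle. It had 648, 618 and 683 normalized counts in controls, 576, 470 and 405 in vehicle-treated mutants and 511, 510 and 571 in rapamycin-treated mutants. Both mutant groups lay below the controls and overlapped each other. The log2 fold change against controls was -0.44 ± 0.15 (SE; adjusted p = 0.271) with vehicle and -0.29 ± 0.15 (SE; adjusted p = 0.35) with rapamycin. Between the mutant groups it was 0.15 ± 0.15 (SE; adjusted p = 0.784), the only positive value among the 10 genes in the 3 comparisons.

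The transcription factors are ordered here by when they act. Pax2 (chromosome 19, 44756045 to 44837871, plus strand) is needed from the progenitor onward and is also made in the ureteric bud. It had 6034, 9132 and 8765 normalized counts in controls, 4847, 7187 and 7304 in vehicle-treated mutants and 5086, 4744 and 5186 in rapamycin-treated mutants. The rapamycin libraries lay below all controls, but the log2 fold change of -0.65 ± 0.19 (SE; adjusted p = 0.0948) did not pass. It passed without control replicate 1 (adjusted p = 0.0191, log2 fold change -0.84) and without mutant vehicle replicate 1 (adjusted p = 0.0434).

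Pax8 (chromosome 2, 24420560 to 24475599, minus strand), the partner of Pax2 in the renal vesicle, had 6602, 9486 and 9199 normalized counts in controls, 5800, 7306 and 7965 in vehicle-treated mutants and 4280, 4982 and 5558 in rapamycin-treated mutants. The rapamycin libraries lay below all 6 other libraries. Pax8 fell 1.69-fold from controls to rapamycin-treated mutants, with a log2 difference of -0.76 ± 0.17 (SE; adjusted p = 0.0388), kept in 3 of 9 fits without 1 library (highest adjusted p = 0.181). By limma-voom it did not pass (adjusted p = 0.0517).

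Lhx1 (chromosome 11, 84518284 to 84525535, minus strand) encodes a LIM homeodomain factor needed for the renal vesicle to pattern and grow. Its normalized counts were 4766, 7446 and 6890 in controls, 3848, 3496 and 3721 in vehicle-treated mutants and 1728, 2318 and 2810 in rapamycin-treated mutants. The groups did not overlap at either step. Rapamycin-treated mutants had 2.79-fold less than controls. On the log2 scale this was -1.48 ± 0.20 (SE; adjusted p = 0.00305), and the call was kept in 9 of 9 fits without 1 library (highest adjusted p = 0.0227). The 2 steps within that change were -0.76 ± 0.20 (SE; adjusted p = 0.11) from controls to vehicle-treated mutants and -0.72 ± 0.20 (SE; adjusted p = 0.178) with rapamycin in mutants. Neither passed on its own. With the replicate block the first passed, at an adjusted p of 0.0417 by limma. Its pairing was taken from these same data, so that call is not separate support.

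Emx2 (chromosome 19, 59458372 to 59465357, plus strand) encodes a homeobox factor of the ureteric bud and of induced mesenchyme. It had 2405, 2807 and 2743 normalized counts in controls, 2482, 2018 and 2198 in vehicle-treated mutants and 1384, 1925 and 1777 in rapamycin-treated mutants. The rapamycin libraries lay below all 6 others. It fell by 0.66 ± 0.14 on the log2 scale (SE; adjusted p = 0.0337) from controls to rapamycin-treated mutants, kept in 3 of 9 fits without 1 library (highest adjusted p = 0.157). The antisense gene Emx2os overlaps it and was counted at 10.2% of its level. No source used here states how the counting treated strand. The split of reads between Emx2 and Emx2os is therefore uncertain.

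Osr2 (chromosome 15, 35296098 to 35303305, plus strand), a zinc finger factor of later nephron segments, had 3726, 5570 and 6123 normalized counts in controls, 2851, 3480 and 3820 in vehicle-treated mutants and 1992, 2814 and 2759 in rapamycin-treated mutants. Vehicle-treated mutants overlapped the controls at 1 library, and rapamycin-treated mutants lay below both other groups. It fell 2.02-fold from controls to rapamycin-treated mutants, with a log2 difference of -1.01 ± 0.20 (SE; adjusted p = 0.0235), kept in 4 of 9 fits without 1 library (highest adjusted p = 0.124). In vehicle-treated mutants the difference from controls was -0.58 ± 0.20 (SE; adjusted p = 0.281), which passed with the replicate block at an adjusted p of 0.0227 by limma. The pairing in that block was taken from these same data, so the block call is not separate support.

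The adhesion and cell cycle genes of the set differed from each other. Cdh6 (chromosome 15, 13028701 to 13173675, minus strand) encodes a cadherin of the early proximal nephron. It had 9647, 11899 and 8680 normalized counts in controls, 11785, 8824 and 9046 in vehicle-treated mutants and 6023, 9985 and 8097 in rapamycin-treated mutants. All 3 groups overlapped. Its log2 fold change in vehicle-treated mutants against controls was -0.03 ± 0.19 (SE; adjusted p = 0.99; 95% interval -0.45 to 0.40), and in rapamycin-treated mutants -0.34 ± 0.19 (SE; adjusted p = 0.4; 95% interval -0.77 to 0.08), so a decrease of the size seen for Pax8 lies at the edge of the second interval.

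Ccnd1 (chromosome 7, 144929931 to 144939925, minus strand) encodes cyclin D1, which moves cells from G1 into S phase and marks the distal renal vesicle. It had 18551, 24472 and 25508 normalized counts in controls, 19248, 16561 and 18822 in vehicle-treated mutants and 11790, 14022 and 16632 in rapamycin-treated mutants. The rapamycin libraries lay below all controls, and vehicle-treated mutants overlapped both. The gene LTO1 overlaps Ccnd1 on the other strand and was counted at 3.65% of its level. Ccnd1 fell 1.61-fold from controls to rapamycin-treated mutants, with a log2 difference of -0.69 ± 0.16 (SE; adjusted p = 0.041), kept in 2 of 9 fits without 1 library (highest adjusted p = 0.181). Of 25 other cell cycle genes tested, none fell and Cdkn1a, which encodes the inhibitor p21, rose. Cdkn1a had 522 ± 65.5 normalized counts (SD, n = 3) in controls and 1085 ± 224 (SD, n = 3) in rapamycin-treated mutants, on the log2 scale 1.04 ± 0.17 (SE; adjusted p = 0.0102). The rise was also called without rapamycin. Vehicle-treated mutants had 1000 ± 136 (SD, n = 3), a change from controls of 0.93 ± 0.17 (SE; adjusted p = 0.0242, limma), kept in 4 of 9 fits without 1 library. From controls to rapamycin-treated mutants the median over these 25 genes was -0.35 and 19 were negative. The number called was 5 without control replicate 1 or mutant vehicle replicate 1, 2 without mutant vehicle replicate 3, 0 without control replicate 2 and 3 by limma-voom.

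Per kb of exon, the level of Ccnd1 was the highest in all 3 groups, at 4851 normalized counts per kb in controls. In controls a run of 6 genes followed whose ranges overlapped from each to the next, from Wnt4 at 1663 through Lhx1 at 1564, Pax2 at 1475, Osr2 at 1419 and Pax8 at 1391 to Cdh6 at 1116. Emx2, at 883, lay below the lowest control value of Cdh6, and Fgf8 at 248 and Bmp2 at 183 came last with overlapping ranges. In rapamycin-treated mutants Lhx1 was at 561, close to Emx2 at 565 and below Cdh6 at 890. Fgf8, at 64.0, lay there below Bmp2 at 149 with no overlap between the libraries.

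**Figure D3:**
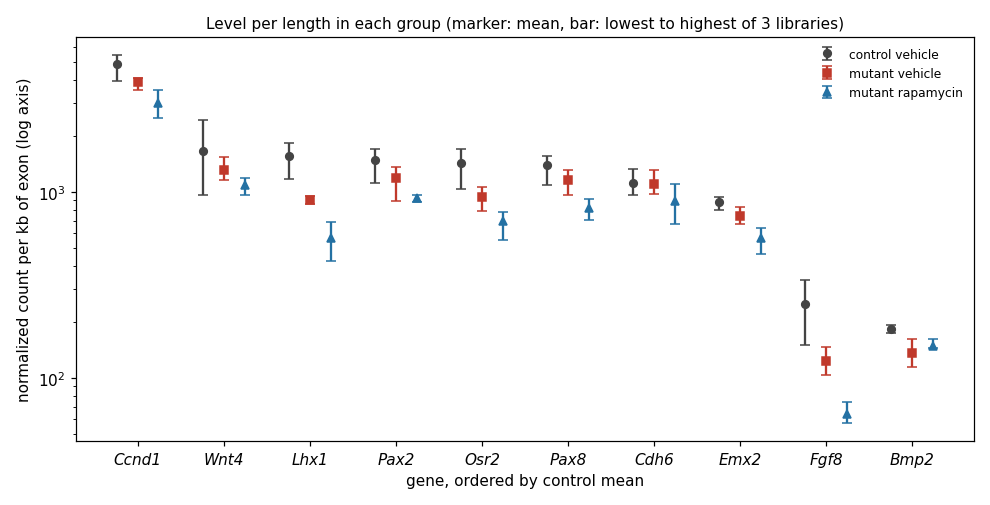
Normalized counts per kb of exon (log axis) for the 10 genes in each group, with the mean as a marker and a bar from the lowest to the highest of 3 libraries, ordered by the control mean. Lhx1 goes from 1564 in controls to 561 with rapamycin, and Fgf8 from above Bmp2 to below it.

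Ratios within a library do not depend on the scaling between libraries. They were chosen after the values were seen and are a description. Fgf8 was 5.02%, 5.23% and 4.44% of Wnt4 in controls, 2.89%, 3.25% and 3.08% in vehicle-treated mutants and 2.02%, 1.7% and 2.01% in rapamycin-treated mutants. The spread of the ratio within the controls was smaller than that of either gene, and the 3 groups did not overlap. An exact permutation test (two-sided, 3 against 3) gave p = 0.1 at each step, the smallest it can give. Lhx1 was 72.2%, 78.5% and 74.9% of Pax8 in controls, 66.3%, 47.9% and 46.7% in vehicle-treated mutants and 40.4%, 46.5% and 50.6% in rapamycin-treated mutants. Both mutant groups lay below controls (exact permutation p = 0.1 each) and overlapped each other (exact permutation p = 0.4).

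**Figure D4:**
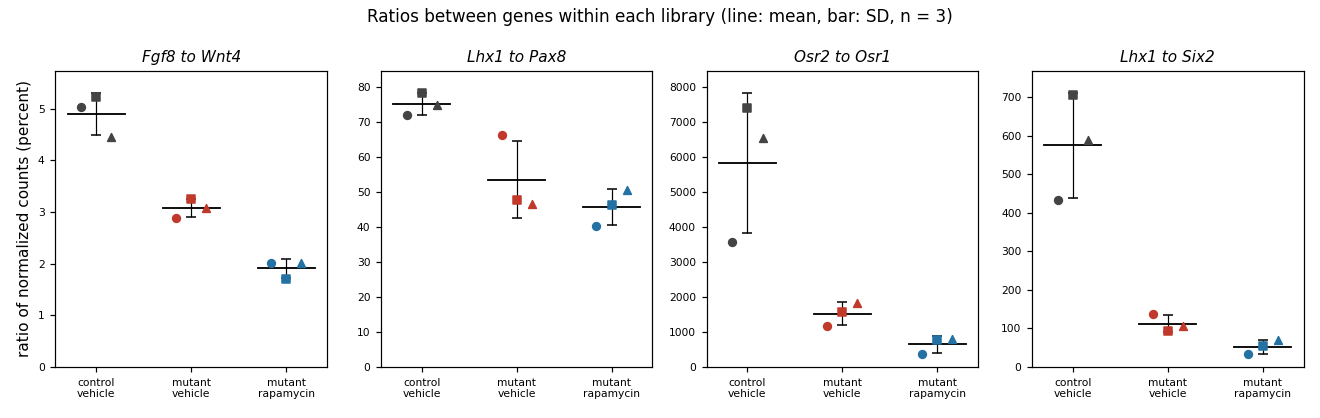
Ratios of normalized counts between pairs of genes within each library, in percent (linear axes from 0), with marker shape for the replicate number, a line for the mean and a bar for the SD (n = 3). Fgf8 to Wnt4 lies between 4.44% and 5.23% in controls and between 1.7% and 2.02% with rapamycin, and the ratios to Osr1 and Six2 fall further.

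Genes of the progenitor state moved the other way. Six2, the factor that holds progenitors undifferentiated, had 1109 ± 58.7 normalized counts (SD, n = 3) in controls, 3355 ± 479 (SD, n = 3) in vehicle-treated mutants and 4465 ± 521 (SD, n = 3) in rapamycin-treated mutants. Both mutant groups carry the Six2 Cre driver, and controls have no Cre named. The part of the driver in the Six2 counts, and so in ratios to Six2, was not tested. Osr1, the relative of Osr2 that acts in progenitors, had 91.2 ± 14.7, 224 ± 15.7 and 410 ± 101 (SD, n = 3 each) and rose in both mutant groups against controls, by 1.30 ± 0.21 (SE; adjusted p = 0.0118) and 2.14 ± 0.21 (SE; adjusted p = 0.000414) on the log2 scale. As a ratio within libraries, Lhx1 was 434% to 705% of Six2 in controls, 93.5% to 137% in vehicle-treated mutants and 34.2% to 69.7% in rapamycin-treated mutants. Of 17 progenitor genes tested, 5 rose, Six2, Osr1, Crym and Eya1 among them, and Meox2 fell in each mutant group against controls. None was called between the mutant groups, where 5 had an unadjusted p under 0.05, against 11.7% of all genes, and limma-voom called 0.

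Among 24 other genes of the renal vesicle and early nephron, 5 fell and none rose from controls to rapamycin-treated mutants, and 21 had negative log2 fold changes with a median of -0.45. Those that fell included the Notch ligand Dll1 and the Notch modifier Lfng, both used in the renal vesicle. Dll1 had 2738 ± 335 normalized counts (SD, n = 3) in controls and 1317 ± 190 (SD, n = 3) with rapamycin, on the log2 scale -1.06 ± 0.16 (SE; adjusted p = 0.00673). Lfng had 3972 ± 868 and 1696 ± 245 (SD, n = 3 each), a change of -1.21 ± 0.18 (SE; adjusted p = 0.00549). Greb1 had 1878 ± 430 and 772 ± 129 (SD, n = 3 each), a change of -1.27 ± 0.18 (SE; adjusted p = 0.00438). These 3 genes were called in 9 of 9 fits without 1 library. Tmem100 fell by 0.96 ± 0.19 on the log2 scale (SE; adjusted p = 0.0229) and the Notch target Heyl by 0.60 ± 0.14 (SE; adjusted p = 0.0438). Their calls were kept in 5 and 3 of 9 such fits (highest adjusted p = 0.124 and 0.164, limma). The count of 5 was 3 without control replicate 2, control replicate 3 or rapamycin replicate 1.

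In vehicle-treated mutants against controls, 1 of these 24 genes fell. It was Dkk1, which encodes a secreted Wnt inhibitor, and it had 1466 ± 303 normalized counts (SD, n = 3) in controls and 729 ± 151 (SD, n = 3) in vehicle-treated mutants (log2 fold change -1.01 ± 0.19, SE; adjusted p = 0.0271). The call of Dkk1 was kept in 5 of 9 fits without 1 library. That count of 1 was 0 without control replicate 2, mutant vehicle replicate 2 or mutant vehicle replicate 3, and 2 without rapamycin replicate 1. With the replicate block, whose pairing was taken from these same data, it was 4. With rapamycin Dkk1 was at 990 ± 145 (SD, n = 3), between the other groups. Between the mutant groups none of the 24 was called, 5 had an unadjusted p under 0.05 against 11.7% of all genes, and limma-voom called 0. The genes with the smallest p there were Wt1, at -0.46 ± 0.11 (SE; adjusted p = 0.143), and Greb1, at -0.73 ± 0.18 (SE; adjusted p = 0.144).

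Wnt9b, the inducing ligand of the ureteric bud, had a negative log2 fold change in vehicle-treated mutants against controls, as did all 10 genes. Between the mutant groups its change was positive, while 9 of the 10 were negative. A link between Wnt9b and the 10 genes was not tested. Wnt9b had 138, 183 and 201 normalized counts in controls, 79.6, 74.3 and 99.3 in vehicle-treated mutants and 196, 212 and 225 in rapamycin-treated mutants. Vehicle-treated mutants lay below both other groups without overlap, while the controls and rapamycin-treated mutants overlapped. It fell by 1.03 ± 0.20 on the log2 scale in vehicle-treated mutants against controls (SE; adjusted p = 0.0355) and rose by 1.32 ± 0.20 between the mutant groups (SE; adjusted p = 0.0243), calls kept in 1 and 4 of 9 fits without 1 library. Of 26 Wnt induction and pathway genes, Wnt9b was the only one called in vehicle-treated mutants against controls, and Wnt9b and Wnt11, a ligand of the ureteric tip, rose between the mutant groups. The call of Wnt11 there was kept in 3 of 9 such fits, and limma-voom called none of the 26 in either comparison. Wnt11 (log2 fold change 0.62 ± 0.13, SE; adjusted p = 0.0311) and the Wnt target Axin2 (0.54 ± 0.13, SE; adjusted p = 0.0454) rose from controls to rapamycin-treated mutants, in 3 and 1 of 9 such fits, and limma-voom called 1 of the 26. The median of the 26 genes was 0.06, 0.04 and 0.12 in the 3 comparisons in the order given above.

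Of 31 genes of the FGF8 and BMP2 pathways, 3 rose and none fell from controls to rapamycin-treated mutants. Fgf20, a ligand that progenitors make, had 24.6 ± 3.86 normalized counts (SD, n = 3) in controls, 83.7 ± 11.8 (SD, n = 3) in vehicle-treated mutants and 122 ± 21.7 (SD, n = 3) in rapamycin-treated mutants. It rose by 1.73 ± 0.24 (SE; adjusted p = 0.00473) and 2.27 ± 0.24 (SE; adjusted p = 0.000776) against controls, so 2 FGF ligands of the induction site, Fgf20 and Fgf8, changed in opposite directions from controls to rapamycin-treated mutants. Dusp6, a phosphatase induced by FGF signals, rose by 0.65 ± 0.12 (SE; adjusted p = 0.019), and Bmper, a secreted BMP modulator, by 1.15 ± 0.16 (SE; adjusted p = 0.00373). In vehicle-treated mutants Fgf20 was the 1 gene called, and 2 were called without mutant vehicle replicate 1. None of the 31 was called between the mutant groups, where 12 had an unadjusted p under 0.05 against 11.7% of all genes, limma-voom called 0, and Smad6 and Smad7, inhibitors of BMP signalling, had the smallest p at 0.62 ± 0.14 (SE; adjusted p = 0.105) and 0.57 ± 0.13 (SE; adjusted p = 0.131).

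Summed levels of cell type markers also differed between the groups. Summed over 14 stromal markers, normalized counts were 147373 to 162582 in controls, 136458 to 154884 in vehicle-treated mutants and 204658 to 259308 in rapamycin-treated mutants, and 4 of the 14 rose from controls to the last group (Col3a1, Postn, Col1a1 and Col1a2). Collagen genes made up most of this sum. In the 3 groups Col3a1 had means of 45632, 43300 and 73241, Col1a1 35870, 31573 and 54018, and Col1a2 34635, 34084 and 49229. From controls to rapamycin-treated mutants 13 of the 14 markers had positive log2 fold changes (median 0.54) and 1 was negative. Without control replicate 2 or 3 or any rapamycin library none of the 14 was called, and without mutant vehicle replicate 2 or 3 there were 2. The sum over 10 endothelial markers was 22736 to 26557, 22100 to 28463 and 30395 to 40343 in the 3 groups. Over 20 proximal tubule markers it was 24399 to 29798, 31097 to 34058 and 38122 to 49796, of which Lrp2 alone had means of 10364, 13663 and 20611. In vehicle-treated mutants against controls, 4 of 19 proximal tubule genes tested rose, 2 fell and 9 had negative log2 fold changes (median 0.17). With rapamycin against controls, 5 rose, none fell and 5 were negative (median 0.60). The fits without 1 library called 3 to 5 and 2 to 5 of the 19. The sum over 18 progenitor markers was 31812 to 36027 in controls, 39670 to 45235 in vehicle-treated and 41673 to 46085 in rapamycin-treated mutants. Over 12 podocyte markers it was 26630 to 29193, 25586 to 26895 and 21787 to 26928, and over 12 loop of Henle and distal tubule markers 6414 to 9900, 5250 to 8941 and 3674 to 7138.

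Ureteric bud and collecting duct markers, 21 in all, summed to 9798 to 12850 in controls, 6469 to 8504 in vehicle-treated mutants and 11134 to 12325 in rapamycin-treated mutants. Of these, 11 fell in vehicle-treated mutants, Wnt9b among them, and 8 rose between the mutant groups. The collecting duct water channel Aqp2 had 1230 ± 471, 191 ± 57.0 and 1095 ± 121 normalized counts (SD, n = 3 each). The 11 became 4 without mutant vehicle replicate 2, 5 without control replicate 2 and 7 without control replicate 3 or rapamycin replicate 3. The 8 became 0 without rapamycin replicate 2, 2 without mutant vehicle replicate 2 or rapamycin replicate 3, 4 without control replicate 2 and 5 without rapamycin replicate 1, and it was 4 by limma-voom. Leukocyte markers, 10 in all, summed to 16660 to 22438, 19444 to 42449 and 17539 to 23782, and 8 erythroid markers to 683 to 4686, 628 to 1686 and 1329 to 3163. At least 1 library of each group had counts for every marker, except 1 loop and 1 erythroid marker that were at 0 in all vehicle-treated mutants. The part of these differences in the values of the 10 genes was not tested.

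The authors' deposited table gave the 10 genes the same signs as the values above where it called them. Of the 10 genes, 7 passed an adjusted p of 0.05 in the authors' deposited results table between rapamycin-treated mutants and controls, the 6 genes named above and Pax2 (log2 fold change -0.67, adjusted p = 0.0235), against 1.86% of all genes passing with lower values. In vehicle-treated mutants against controls the authors' deposited table passed Lhx1 (-0.79, adjusted p = 0.0117) and Fgf8 (adjusted p = 0.0243), 2 of the 10, against 0.791% of all genes lower. Between the mutant groups the authors' deposited table passed none of the 10, where the lowest adjusted p was 0.061 for Lhx1, against 0.432% of all genes lower.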

How the data were processed

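RNA was sequenced from 9 libraries in 3 groups of 3 (KAPA stranded mRNA kit, NextSeq 500, per the labels' protocols). The submitters' processing notes name cutadapt 1.18, TopHat2 2.1.1, HTSeq 0.6.0, DESeq2 1.22.1 and the build GRCm38. The deposited table holds raw counts, normalized counts and the authors' own log2 fold changes, p-values and adjusted p-values, with "?" where the authors gave no value. Of 54838 genes, 6252 have "?" for counts and 24539 have normalized counts. These equal the deposited raw counts divided by 1 size factor per library (0.874 to 1.19) to within a relative 5.3e-15. Columns with "?" cells were not accepted as counts here, so the edgeR and DESeq2 fits planned as alternatives were not run. The raw counts of the genes with values were used for limma-voom and for TMM scaling. The main test was limma 3.58.1 (R 4.3.3, statmod 1.5.0; trended, robust) on log2(normalized count + 1) for the 19656 genes with a mean of at least 5, over all 9 libraries, with Benjamini-Hochberg adjustment over all genes tested and a threshold of 0.05. Fold changes on this scale understate changes of low genes. The script was tested on simulated data. The level per kb used the union of exons of GENCODE M21 (GRCm38). The gene coordinates are those of the deposited table. The raw totals were 23372093 to 32669791 counts, and 9 of the 10 genes are counted deeply enough that the spread between 3 libraries limits the precision. Fgf8, with 68 raw counts in its lowest library, also carries counting error.

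The members and lists were chosen with earlier results of these data known. Text names all 10 genes, then of each other list every called gene if there were 5 or fewer, otherwise the 4 with the smallest p, and the 2 with the smallest p where none was called. Six2, Prom1 and Tsc1 were named as checks. The calls among podocyte genes are not reported here. The text departs from the rule for the other cell type markers, most of which are given as sums with few genes named. Same-numbered control and mutant vehicle libraries deviated together (correlations 0.43, 0.14 and 0.45), while differently numbered ones of these groups gave -0.45 to 0.06. Differently numbered control and rapamycin libraries reached 0.47 (control replicate 1 with rapamycin replicate 2) and 0.39 (control replicate 3 with rapamycin replicate 1). The labels give no pairing, so the pairing rests on these same data. Values with the replicate number as a block, fitted over all 9 libraries, are given beside that comparison where they change a call. The ratios and Gm42418 were chosen after their values were seen. Promoters were searched by exact letters on both strands.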

Additional observations from a re-analysis of the deposited data

How the results depend on the processing

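In 540 repeats of a fold change of 1 of the 10 genes under 1 of 18 alternatives, 497 kept their direction and their side of the threshold, 28 lost the call, 10 gained it and 5 turned sign, all 5 in vehicle-treated mutants against controls. Of those, Wnt4 ranged from -0.61 to 0.06 and Cdh6 from -0.16 to 0.10 over the fits without 1 library, and Cdh6 was 0.03 by limma-voom, which was chosen after seeing the data. In the order mutant vehicle against control, mutant rapamycin against mutant vehicle, and mutant rapamycin against control, the fits without 1 library called 81 to 336, 0 to 200 and 175 to 1131 of all genes, where the full fit called 279, 59 and 637. They called 0 to 2, 0 and 2 to 8 of the 10 genes, and 0 to 2, 0 and 3 to 7 of the 24 other renal vesicle genes. Fitted with only the groups compared, the first comparison called 99 of all genes and 0 of the 24, and the last called 3 of the 10 (Pax8, Emx2 and Ccnd1 lost). Without control replicate 1 and rapamycin replicate 2, the libraries with most ribosomal RNA reads, the first comparison called 2 of the 10 (Lhx1 and Fgf8) and 0 of the 24, and the second called 22 of all genes. The third still called 6 of the 10 in that fit. Same-numbered libraries deviated together in the first comparison but not in every pair of the second (-0.13 to 0.08) and the third (-0.34 to 0.22), where the numbers are not taken to pair the libraries. With a replicate block, 2 of the 10 (Lhx1 and Osr2) and 4 of the 24 were called in the first comparison, 2 of the 24 and 206 of all genes in the second, and 7 of the 10 and 1090 of all genes in the third. Other pseudocounts (0.5 and 5), filters (none, or a mean of at least 20) and TMM scaling kept the counts over all genes, the 10 and the 24 within 1.5 times. The planned edgeR and DESeq2 fits were not run, because the deposited columns with "?" cells were not accepted as counts. With 3 libraries a group, the spread between libraries limits these calls, and for Fgf8 counting error adds to it. The causes of the changes were not tested.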
